A study of Cucumis melo with 12 samples.

Results

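This set holds 151 melon (*Cucumis melo*) genes that were listed above mock in radicles of seeds primed with *B. velezensis* FZB42 at either dose. A gene was a member when its MELO3C identifier was on both dose lists of the radicle, was absent from the mock seed list, had a mock radicle value above 0 (over 1e-10), and exceeded that mock value at both doses. The members are 151 of the 3256 identifiers in the 6 deposited lists. They make up 5.07% of the 2978 melon genes on the mock radicle list, 56.3% of the 268 listed at low dose and 5.13% of the 2943 listed at high dose. The members were thus chosen by their radicle values against mock, and their direction is no finding. Of all listed loci, 75.9% were above mock on the low-dose list and 38.9% on the high-dose list. Both doses were set against 1 mock value per gene, so a shared direction alone does not show a shared response.

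The radicle is the embryonic root and the first organ to leave the seed, where it takes up water and meets the microbes carried on the seed coat. *B. velezensis* is a plant-associated, spore-forming bacterium that secretes cyclic lipopeptides such as surfactin, fengycin and bacillomycin D, and plants can sense such bacteria and change the transcription of defence, cell wall and metabolic genes. Radicle growth depended on inoculum dose in this study, which is the question behind comparing the doses gene by gene.

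The groups used here are radicles from mock seeds (immersed in water), from low-dose seeds (log10 CFU per ml of 7) and from high-dose seeds (log10 CFU per ml of 8), taken at an age of 5 days after germination in darkness on moist filter paper. All seeds were of *C. melo* var. Rochet Panal and were surface sterilized before immersion. Each group had 2 libraries, which the study calls biological duplicates, out of 12 libraries in 6 groups. The deposited lists give a single value per gene and group that combines its libraries, so there is no replicate error, no difference could be tested, and every difference below is a description. The authors name the values FPKM. Since the same low value recurs in many genes they were taken here as a signal of unstated scale, and how many reads a value stands for is unknown. Abundance below refers to the listed value, which may not rank different genes by expression. In bulk tissue, a change in the share of cells that express a gene and a change of RNA per cell cannot be told apart.

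The files give identifiers without gene names. None of the 3256 identifiers was found in the RefSeq gene table used here (0 matches). No gene that the study names by function with a MELO3C identifier met the rule. Genes that it names with another kind of identifier could not be checked. The members are therefore described by identifier, with no role given to any of them, and markers of root tissue could not be checked. No sequence is shown for the same reason. Melon identifiers on both radicle dose lists numbered 233. Of these 14 were on the mock seed list, and among the other 219 there were 16 listed at 0 in mock, 151 above mock at both doses, 48 below mock at both doses and 4 with directions that differed between doses. All 131 genes of the low-dose seed list and all 32 of the high-dose seed list are also on the mock seed list, so by the rule 0 members appeared on the low-dose seed list and 0 on the high-dose seed list.

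The member closest to mock at high dose was MELO3C018031, with a low-dose value 1.88 times and a high-dose value 1.71 times its mock value of 1844. On the other side, the gene below mock at both doses that came nearest was MELO3C015469, listed at 4850 in mock, 2025 at low dose and 2934 at high dose. No gene of the set lay between mock and 1.5 times mock, and the smallest multiple of mock among raised melon genes above 0 in mock was 1.87 on the low-dose list and 1.54 on the high-dose list, so the lists leave a gap around equality. The lowest mock value of a member was 0.549, and the 16 genes kept out by a mock value of 0 had low-dose values of 105.9 to 2816 and high-dose values of 20.9 to 1730. The rest of the rule was also met by 8 genes that were on the mock seed list, the most abundant being MELO3C027626 (71689 in mock, 465340 at low dose and 517579 at high dose), and by 10 XLOC loci, which have no melon gene identifier. Of the genes with differing directions, MELO3C033692 was the most abundant, with 185344 in mock, 647203 at low dose and 79639 at high dose.

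The members covered a wide range of abundance. Mock values ran from 0.549 to 83582 with a median of 748, low-dose values from 116 to 263553 with a median of 2394, and high-dose values from 28.2 to 290906 with a median of 2161. By mock level, 28 members were under 10, 20 were from 10 to under 100, 35 from 100 to under 1000, 58 from 1000 to under 10000 and 10 at 10000 or above. The spread between members was thus much wider in mock than at the doses at its lower end, where all 151 low-dose values exceeded 100. Summed over the members, the listed signal was 473284 in mock, 1659628 at low dose and 1533586 at high dose. The members held 3.97% of all listed signal in mock, 42.5% at low dose and 12.1% at high dose, where the lists differ in length and so in total.

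**Figure D1:**
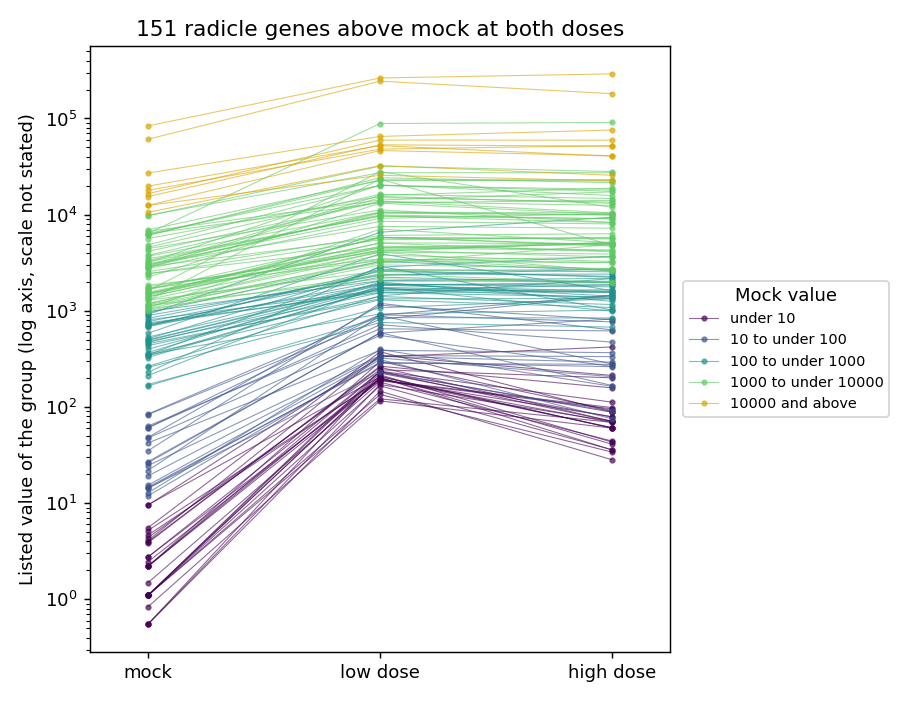
Listed value of each of the 151 genes (log axis) in mock, low-dose and high-dose radicles, with 1 line per gene coloured by its mock value. Lines of genes under 10 in mock climb to low-dose values of 116 to 375 and, in 27 of 28 genes, then bend down, to high-dose values of 28.2 to 421 over the 28, whereas lines of abundant genes run nearly level between the doses.

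A few genes carried much of the summed signal. MELO3C000489 was the most abundant member in every group, listed at 83582 in mock, 263553 at low dose and 290906 at high dose. The second was MELO3C029635, with 60752 in mock, 244186 at low dose and 181023 at high dose. Together they held 30.5% of the members' sum in mock, 30.6% at low dose and 30.8% at high dose, so the balance of these genes against the rest was nearly the same in the 3 groups. The next in mock were MELO3C000993 (27087 in mock, 65050 at low dose and 75855 at high dose) and MELO3C021580 (19755 in mock, 52178 at low dose and 40433 at high dose). MELO3C035316 followed with 17869 in mock, 48009 at low dose and 52164 at high dose. The most abundant gene and these 2 at lower rank, MELO3C000993 and MELO3C035316, were higher at high dose, while MELO3C029635 and MELO3C021580 were higher at low dose. The 10 most abundant members of each group held 58.4% of the sum in mock, 57.4% at low dose and 59.4% at high dose.

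Differences from mock are given as log2((dose + 1)/(mock + 1)). At the low dose the median over the members was 1.97, with quartiles of 1.56 and 4.19 and a range of 0.90 to 7.13. At the high dose the median was 1.80, with quartiles of 1.47 and 3.63 and a range of 0.78 to 5.75. Over all listed loci, whichever their direction, the median was 1.74 at low dose and -0.76 at high dose. Members past a log2 of 1 numbered 147 (97.4%) at low dose and 144 (95.4%) at high dose. The background was 74.2% of all 291 loci on the low-dose list and 31.3% of all 3106 on the high-dose list, but nothing is read from these shares since direction chose the members. Over 214 melon genes on both lists, the median ratio to mock was 3.30 at low dose and 2.97 at high dose. These are a log2 of 1.72 and 1.57 before the pseudocount. With every value of a dose divided by its ratio, 54 members would fall below mock at low dose and 53 at high dose. Most of the 214 are members, which were chosen for values above mock. A difference in scale between the groups cannot be told apart from that choice and was not tested. Past a log2 of 2 there were 73 members (48.3%) at low dose and 66 (43.7%) at high dose. The shares of all loci on the same lists were 41.9% and 21.0%, and nothing is read from this contrast either, since direction chose the members. Of the members past 2, 65 passed it at both doses, 8 at low dose alone and 1 at high dose alone. The last was MELO3C014224 (3142 at low dose and 4889 at high dose), with log2 differences from mock of 1.49 and 2.13 in that order. The same split over all loci on both lists was not computed, so nothing is read from the split in members.

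The multiple of mock was larger where the mock value was lower. This gradient is built into the lists, which admit genes of little signal in mock at large multiples alone: among raised melon genes with a mock value above 0 and under 10, the smallest was 21.5 times mock on the low-dose list and 6.19 times on the high-dose list. The 714 genes above mock on the high-dose list alone show it too, with a median of 21.3 times mock under 10 and of 1.81 times from 1000 to under 10000. In the 48 members under 100 in mock, the median low-dose value was 49.0 times and the median high-dose value 24.5 times mock, and each of the 48 passed a log2 of 2 at both doses. Of all listed loci above 0 and under 100 in mock, 98.3% passed it upwards on the low-dose list and 91.6% on the high-dose list, so this is no trait of the members. In the 103 members at or above 100, the medians were 3.28 times mock at low dose and 2.96 times at high dose, and 25 and 18 of them passed a log2 of 2 at the low and the high dose, against 19.2% and 1.59% of all listed loci at that level, from which nothing is read since direction chose the members. Among the 68 members at or above 1000 the changes were narrow. There 53 lay between a log2 of 1 and 2 at low dose and 53 did at high dose, with quartiles of 1.40 and 1.85 at low dose and of 1.30 and 1.74 at high dose. Most abundant members were therefore near 3 times their mock value at either dose. The lists bound this range from below, as the smallest multiple among all raised melon genes above 0 in mock was 1.87 at low dose and 1.54 at high dose. The share of all listed loci at this level that lay in the same range was not computed, so the narrow range is not read as a trait of the members.

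The largest changes belonged to genes with almost no signal in mock. MELO3C017239 was listed at 0.549 in mock, 215 at low dose and 43.1 at high dose, and had the largest log2 difference at low dose, 7.13. MELO3C025178, at 1.10 in mock, 236 at low dose and 112 at high dose, had the largest at high dose, 5.75. MELO3C034541 was among the top of both rankings, with 0.549 in mock, 171 at low dose and 70.7 at high dose. These genes were at 215 to 392 times mock at low dose and 78.4 to 129 times mock at high dose, and such ratios rest on mock values at the foot of the list. The same 0.549 was listed in mock for 3 members and for 37 loci in all, 1.10 for 7 members and 46 loci, and 2.20 for 4 members and 24 loci. Other members with a large high-dose change had slightly more signal in mock. MELO3C029162 was listed at 4.08 in mock, 344 at low dose and 213 at high dose, and MELO3C003644 at 9.52 in mock, 332 at low dose and 421 at high dose.

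The smallest changes were found in genes with high listed values in mock. MELO3C005430 had the smallest at low dose, a log2 of 0.90, with 2437 in mock, 4557 at low dose and 5089 at high dose. MELO3C025324 was listed at 1135 in mock, 2149 at low dose and 1961 at high dose. MELO3C026755, with 12481 in mock, 25660 at low dose and 22468 at high dose, was among the smallest at high dose with a log2 of 0.85. In these genes the dose values were between 1.73 and 2.09 times mock. Above 1000 in mock some genes departed from the usual 3 times. MELO3C028204 was listed at 6353 in mock, 88582 at low dose and 90953 at high dose, which is 13.9 and 14.3 times mock, and it was chosen after its values were seen.

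**Figure D2:**
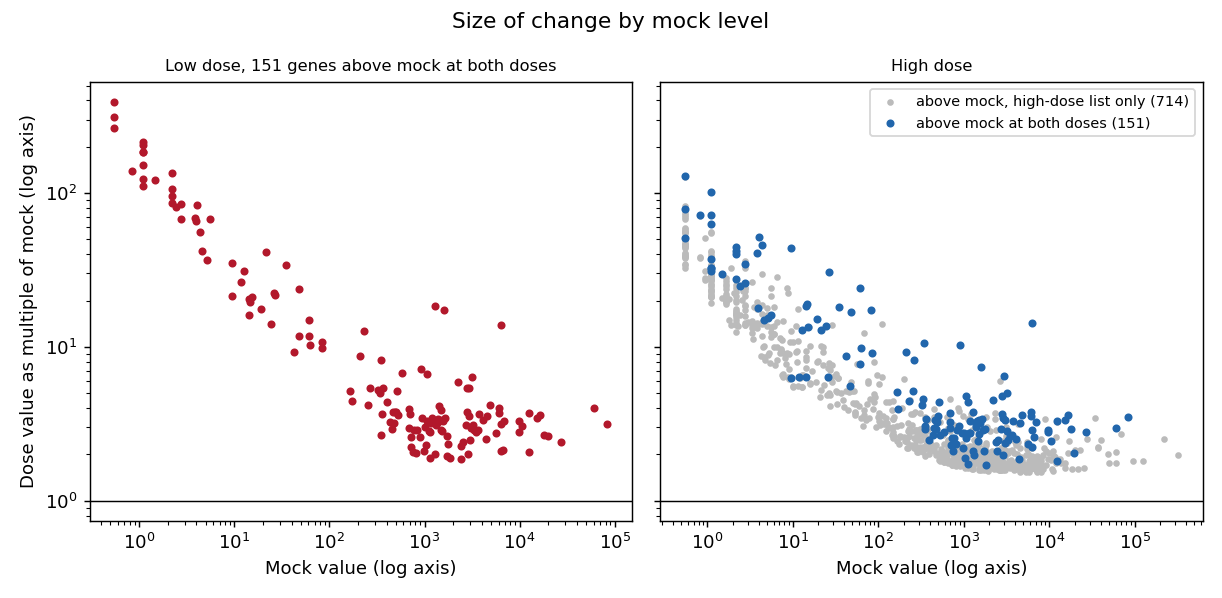
Dose value as a multiple of mock (log axis) against the mock value (log axis), with the low dose on the left and the high dose on the right, 1 point per gene, and in grey the 714 melon genes above mock on the high-dose list alone. Under 10 in mock the median multiple of the 151 genes is 101 at low dose and 38.7 at high dose, and at 10000 or above it is 3.11 and 2.95. The grey medians at these levels are 21.3 and 1.96. Of the 151 genes 138 lie above the grey median of their mock level.

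Members were also set beside the 714 melon genes that were above mock on the high-dose list but not on the low-dose list, by the same rule on seeds and on a mock value above 0. Members are 17.5% of the 865 such raised genes on the high-dose list and 90.4% of the 167 on the low-dose list, so nearly all raised low-dose genes are members. At the high dose the median log2 difference from mock was 1.80 in members and 1.44 in genes of the high-dose list alone. Within each mock level it was higher in members: 4.50 against 3.77 under 10, 3.65 against 2.44 from 10 to under 100, 1.61 against 1.25 from 100 to under 1000, 1.53 against 0.85 from 1000 to under 10000, and 1.56 against 0.97 at 10000 or above. This difference was not tested, and being on the low-dose list is part of how the members were chosen. The 16 raised genes of the low-dose list alone had a median log2 of 1.47 at low dose, against 1.97 in members. These medians are not matched by mock level, as 0 of the 16 but 28 members were under 10 in mock.

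Which dose was higher is not fixed by the rule. The high-dose value was above the low-dose value in 35 members (23.2%) and the low-dose value above the high-dose value in 116 (76.8%). Over the 250 loci on both lists, members included, the low dose was higher in 72.4%. Most of these loci are members, so a share near theirs is partly built in and nothing is read from it. The median log2 of high over low dose was -0.17 in members, with quartiles of -0.68 and -0.01, and -0.19 over the 250 loci. With each dose divided by its median ratio to mock as above, the high dose was higher in 71 members and the low dose in 80 (53.0%). The split thus moves with the scaling. Most of the genes behind these ratios are members, however, so this scaling evens the split by construction and is no check of it. In 77 members the doses were within a log2 of 0.25 of each other. No member was higher at high dose by a log2 over 1 (0 of 151), whereas 30 (19.9%) were higher at low dose by that much. The share of the 250 loci was 20.4%, from which nothing is read either, since most of them are members. Among the 48 melon genes below mock at both doses, the high dose was higher in 26 and the low dose in 22, with a median log2 of 0.02. The difference from the members was not tested and is not matched by mock level. At or above 1000 in mock were 46 of the 48 genes (95.8%) but 68 members (45%), and these 68 had a median log2 of -0.12.

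**Figure D3:**
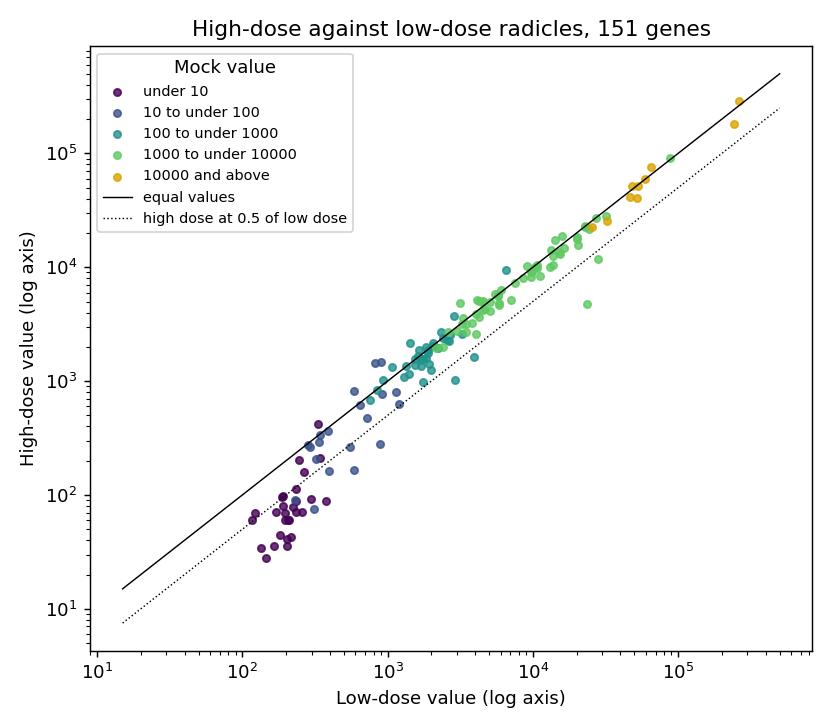
High-dose value against low-dose value (both log axes) for the 151 genes, coloured by mock value, with a line of equal values and a dotted line where the high dose is at 0.5 of the low dose. Abundant genes follow the line of equal values, while most genes under 10 in mock fall below the dotted line.

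The excess at low dose was concentrated in genes with little signal in mock. Of the 28 members under 10 in mock, 1 was higher at high dose and 27 at low dose, 20 of them by a log2 over 1, and the median log2 of high over low dose was -1.60. The exception was MELO3C003644. Median values there were 70.7 at high dose and 204 at low dose. From 10 to under 100 the median log2 was -0.37, with 3 members higher at high dose and 17 at low dose. It was -0.09 from 100 to under 1000, -0.12 from 1000 to under 10000 and -0.11 at 10000 or above. In the 103 members at or above 100 in mock, 31 were higher at high dose and 72 at low dose, 4 of them by a log2 over 1, and 70 were within a log2 of 0.25. The shares of all loci on both lists at these mock levels were not computed, so these counts are not read as a trait of the members.

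The low-dose list sets a floor that bears on this. Among raised melon genes with a mock value above 0 and under 10, the lowest value was 17.9 at high dose (223 genes, of which 205 were under 100), and 116 at low dose (29 genes, 0 under 100). With genes at 0 in mock included, the lowest value was 10.1 at high dose and 78.3 at low dose, where 1 gene was under 100. Of the 28 members under 10 in mock, 23 (82.1%) had a high-dose value under 100, compared with 182 of the 194 genes (93.8%) on the high-dose list alone. The higher low-dose values of these members therefore cannot be told apart from the entry level of the low-dose list.

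**Figure D4:**
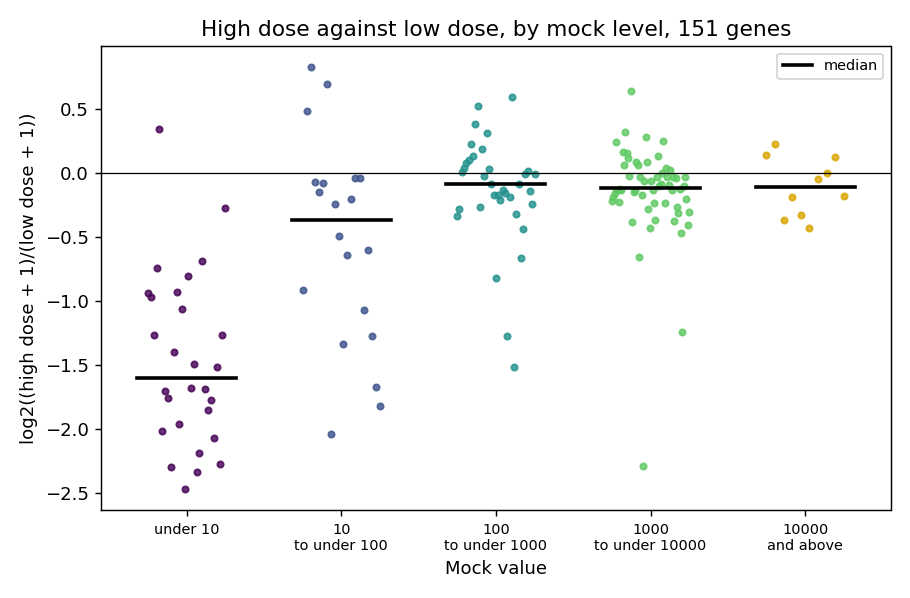
Log2((high dose + 1)/(low dose + 1)) of the 151 genes by mock level, 1 point per gene placed in order of identifier, with the median as a black bar. Medians are -1.60 and -0.37 in the groups under 10 and from 10 to under 100, and lie between -0.12 and -0.09 in the other groups.

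The genes with the largest excess at low dose were of this low-signal kind, with an exception. MELO3C025445 had 35.7 at high dose and 202 at low dose, a log2 of -2.47, MELO3C028367 at 28.2 and 146 in the same order, a log2 of -2.33, and MELO3C034237 at 41.0 and 202, a log2 of -2.27. Their mock values were 1.10, 0.549 and 1.10. The exception was MELO3C020568, an abundant gene with 1281 in mock, 23426 at low dose and 4797 at high dose. It stood 18.3 times above mock at low dose and 3.75 times at high dose, a log2 of high over low dose of -2.29. A similar form was shown by MELO3C032366, chosen after its values were seen as the next of the members at or above 1000 in mock, with 1609 in mock, 28015 at low dose and 11865 at high dose, or a log2 of -1.24. These 2 were the only members at or above 1000 in mock that differed by a log2 over 1 between doses, and 4 of the 68 differed by over 0.5.

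The high dose was higher by a log2 over 0.5 in 5 members (3.31%), and the low dose in 42 (27.8%). Over the 250 loci on both lists the shares were 6.00% and 30.8%. Most of these loci are the members themselves, so the shares cannot tell whether members are set apart, and nothing is read from them. MELO3C004850 had the largest such difference, with 1443 at high dose and 816 at low dose, or a log2 of 0.82, over a mock value of 83.1. MELO3C008375 was listed at 1458 at high dose and 902 at low dose, over 60.6 in mock. In MELO3C014224 the high-dose value was 1.56 times the low-dose value, and in MELO3C028157 (2161 at high dose and 1433 at low dose, over 264 in mock) it was 1.51 times. MELO3C013845 was listed at 9407 at high dose and 6564 at low dose, over 913 in mock, so that it stood 10.3 and 7.19 times above mock. None of these genes was under 10 in mock, where the floor of the low-dose list bears on the comparison. Without replicates none of these differences between doses can be set against a spread between libraries.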

How the data were processed

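Sequencing covered 12 RNA libraries of melon radicles and seeds, 2 per group, with groups taken from the sample titles. The authors used the DHL92 v4 melon genome for alignment, and Bowtie2 and SAMtools appear in the processing notes of the submitters. The deposited signal, named FPKM by the authors, is 1 value per gene and group over its libraries, for selected genes only, and its normalization is not given in the sources used here. Read depth is stated by the study for each library, while the reads behind single values are unknown. Columns of the 3 radicle lists and the mock seed list were joined by identifier. Differences used a pseudocount of 1, with no minimum, and bins of mock level at 10, 100, 1000 and 10000. No test was run. Selection and log2 ratios were tested on simulated data. Members, gene rules and alternatives were chosen with earlier results of these data known. Named genes are the 5 highest and 5 lowest in mock, the 5 largest and 3 smallest differences per dose and the 5 largest between doses per direction, from which examples are given. Alternatives were pseudocounts of 0.1 and 0, minimum mock values, other thresholds, adding XLOC or seed-listed genes, and median ratio scaling. Groups by gene description could not be formed. Python 3.11.15, pandas 2.3.3, numpy 2.4.6 and matplotlib 3.10.9 were used.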

Additional observations from a re-analysis of the deposited data

How the results depend on the processing

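No paired analysis was possible because each list holds 1 column for its group with no library in it, and for the same reason no fit with a replicate block and no fit without 1 replicate was run. Counts and ratios were taken as kept within a factor of 1.5. The set kept to between 123 and 161 members under each alternative except a requirement of 3 times mock at both doses, which left 93. With a mock value of at least 10, the share of members higher at low dose by a log2 over 1 was 8.13%, and with at least 100 it was 3.88%, while the shares past a log2 of 2 were 17.5% at high dose and 24.3% at low dose. Median ratio scaling divided each dose by its median ratio to mock over 214 melon genes on both lists, 2.97 at high dose and 3.30 at low dose, most of which are members, so it lowers every value of a dose by the same factor, and every member with it, by construction and is no check of the listed values. Under it the median log2 was 0.23 at high dose and 0.25 at low dose, 35.8% and 37.7% of members passed 1 and 26.5% and 29.8% passed 2 in that order. It turned the sign at high dose for MELO3C000993 (-0.085), MELO3C005430 (-0.51), MELO3C018031 (-0.79), MELO3C021580 (-0.54), MELO3C025324 (-0.78), MELO3C026755 (-0.72) and MELO3C035316 (-0.025). It did so at low dose for MELO3C000489 (-0.064), MELO3C000993 (-0.46), MELO3C005430 (-0.82), MELO3C014224 (-0.23), MELO3C018031 (-0.81), MELO3C021580 (-0.32), MELO3C025324 (-0.80), MELO3C026755 (-0.68) and MELO3C035316 (-0.30). The share of members higher at low dose was 53.0% under this scaling. Without a pseudocount 18 ratios of named genes moved by over a factor of 1.5 and 63 did not, the 18 being of genes with low mock values such as MELO3C017239, whose low-dose log2 of 7.13 became 8.62. What depth limits was not computed, since the lists hold no read counts.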

Other observations

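Among the members, 3 pairs had consecutive identifier numbers, and this was looked for after the values were seen. MELO3C017083 was listed at 2232 in mock, 13141 at low dose and 10049 at high dose, and MELO3C017084 at 4578 in mock, 16287 at low dose and 14706 at high dose. MELO3C029634 was listed at 2829 in mock, 10611 at low dose and 10392 at high dose, beside MELO3C029635, which was among the most abundant members. MELO3C031850 was listed at 1421 in mock, 5838 at low dose and 4702 at high dose, and MELO3C031851 at 3214 in mock, 9911 at low dose and 9066 at high dose. All 6 were higher at low dose, as were 76.8% of all members and 72.4% of the 250 loci on both lists, so nothing is read from this. Positions of these genes were not analysed here. MELO3C025445 and MELO3C034237 had the same mock value of 1.10 and the same low-dose value of 202, and differed at high dose (35.7 and 41.0).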
